A study of Homo sapiens with 6 samples.

Results

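The 246 protein-coding ZNF genes of chromosome 19 were examined for peaks of the SWI/SNF chromatin remodelling complex in a pair of prostate cancer lines. They are the chromosome 19 genes in the RefSeq table for GRCh38 whose symbol is ZNF followed by digits and at most 1 letter, and they make up 246 of the 20033 protein-coding genes compared. ChIP-seq was done with an antibody to BRG1, the ATPase subunit encoded by SMARCA4, and with an antibody to SMARCC2, a scaffold subunit. LNCaP, an androgen-dependent human prostate adenocarcinoma line, was grown without added enzalutamide as far as the labels say. MR49F, its enzalutamide-resistant derivative, was kept in 10 µM enzalutamide, an antiandrogen drug, so the effects of line and drug cannot be told apart. All cells were fixed by 45 min in 2 mM disuccinimidyl glutarate followed by 10 min in 1% formaldehyde, and each precipitation used 4 µg of antibody. There was 1 library for each line and antibody and 1 input for each line, and the 2 inputs were not analysed here. Each line is 1 cell line, so any difference is between these libraries and has no replicate check. No p-value was computed.

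A peak was assigned to a member when its summit lay in the gene span or within 5 kb of it. It was called a gene-end peak within 1 kb of either end of the span, internal elsewhere inside the span, and a flank peak otherwise. The authors' lists held 36174 (LNCaP BRG1), 25706 (LNCaP SMARCC2), 44308 (MR49F BRG1) and 47615 (MR49F SMARCC2) peaks. Members had 94, 49, 166 and 149 distinct peaks in these lists, in the same order. The number of reads behind each list is not given in the sources used here. The local background solved from each peak's fold and p-value had a median of 5.48, 5.26, 4.89 and 4.38 tags over autosomal peaks, which is a relative guide to depth. The fold enrichment and −log10 q-value of a peak are the authors' caller's own values and are compared within a list only. The q-value is the p-value adjusted for the number of sites tested by the caller. Wilson 95% intervals given with shares cover counting error only.

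ZNF genes encode zinc finger proteins, most of them transcription factors that read DNA through tandem fingers. Many on chromosome 19 also carry a KRAB domain, which recruits the corepressor TRIM28 and with it enzymes that deposit silencing histone methylation, largely over transposable elements. The genes arose by repeated tandem duplication and stand in clusters of close relatives. SWI/SNF slides or ejects nucleosomes with the energy of ATP and is commonly found at active promoters and enhancers.

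The promoters of 4 members with a gene-end region in every list are shown because the results turn on such sites, and that of ZNF577 is shown as the longest member without any peak. Each is the stretch of 250 bases before the RefSeq start site (GRCh38.p14), written 5′ to 3′ on the strand of the gene. ZNF792 lies at chr19:34964230-34964479 (minus strand), ZNF766 at chr19:52269337-52269586 (plus), ZNF780A at chr19:40090944-40091193 (minus), ZNF547 at chr19:57363301-57363550 (plus) and ZNF577 at chr19:51887952-51888201 (minus). Capitals mark matches, on either strand, to GGGCGG (the GC box), CCAAT, CCGGAAGT (a motif of ETS factors) and TGACGTCA (the cAMP response element), from a search for 9 motifs.
ZNF792: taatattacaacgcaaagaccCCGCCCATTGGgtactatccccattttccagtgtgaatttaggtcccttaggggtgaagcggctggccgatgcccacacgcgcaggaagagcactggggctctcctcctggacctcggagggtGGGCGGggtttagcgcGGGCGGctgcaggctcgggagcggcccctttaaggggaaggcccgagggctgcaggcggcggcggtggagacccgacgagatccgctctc
ZNF766: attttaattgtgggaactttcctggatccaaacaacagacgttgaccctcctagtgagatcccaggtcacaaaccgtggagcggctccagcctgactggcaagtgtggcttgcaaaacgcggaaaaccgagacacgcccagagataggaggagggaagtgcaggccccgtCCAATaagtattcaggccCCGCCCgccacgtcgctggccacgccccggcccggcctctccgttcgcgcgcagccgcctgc
ZNF780A: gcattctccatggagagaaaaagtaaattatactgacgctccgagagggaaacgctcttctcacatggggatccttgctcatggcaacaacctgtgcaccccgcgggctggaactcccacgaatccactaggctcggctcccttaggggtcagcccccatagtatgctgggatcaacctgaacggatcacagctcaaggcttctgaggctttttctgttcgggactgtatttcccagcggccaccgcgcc
ZNF547: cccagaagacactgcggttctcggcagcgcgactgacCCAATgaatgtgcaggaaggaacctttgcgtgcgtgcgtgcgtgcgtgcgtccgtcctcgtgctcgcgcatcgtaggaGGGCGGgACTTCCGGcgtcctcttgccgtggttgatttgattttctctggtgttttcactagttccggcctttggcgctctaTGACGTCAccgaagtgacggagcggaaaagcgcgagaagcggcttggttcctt
ZNF577: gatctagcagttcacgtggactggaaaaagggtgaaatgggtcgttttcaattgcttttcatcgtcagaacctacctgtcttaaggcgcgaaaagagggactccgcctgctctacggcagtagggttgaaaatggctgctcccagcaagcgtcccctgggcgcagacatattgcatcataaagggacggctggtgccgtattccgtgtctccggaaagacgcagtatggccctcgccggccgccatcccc

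The ZNF792 promoter held 3 GC boxes and 1 CCAAT, the latter 223 bases before the start site. In ZNF766 a CCAAT lay 80 and a GC box 62 bases before the start site. ZNF547 held the most different matches of the 5, with 1 CCAAT, 1 GC box, 1 ETS motif and 1 cAMP response element, and 28 CpG dinucleotides in 250 bases. ZNF780A, which had peaks in every list, and ZNF577, which had none, held no match to any of the 9 motifs, and both had a GC content of 55.6%. Peaks reached into these stretches unevenly. The LNCaP BRG1 peak covered all 250 bases at ZNF766 and at ZNF547, and the MR49F peaks covered 195 (BRG1) and 219 (SMARCC2) bases at ZNF780A. The LNCaP SMARCC2 peak covered 0 bases of each of the 4 promoters, since it lay downstream of the start site.

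Fewer members than protein-coding genes as a whole carried a peak, though in MR49F they did not differ much from the rest of their chromosome. A peak of LNCaP BRG1 was present at 83 members (33.7%), against 59.5% of all protein-coding genes, and a peak of LNCaP SMARCC2 at 50 (20.3%), against 46.9%. In MR49F, BRG1 was called at 138 members (56.1%), against 69.4% of all genes, and SMARCC2 at 129 (52.4%), against 67.3%. The members' share was below that of all genes in each list, and the Wilson interval of each, the highest of which ended at 62.2%, did not reach the share of all genes. Over the 1205 other protein-coding genes of chromosome 19 the shares were 46.2% and 24.1% in LNCaP and 58.3% and 48.2% in MR49F for BRG1 and SMARCC2. Against these the members were lower with BRG1 in LNCaP, while the members' intervals held the values of the other 3 lists. The spans of members and all genes did not differ much in size, with a median of 23.2 kb for members and 24.1 kb for all genes. The other chromosome 19 genes were shorter, with a median of 12.8 kb, and no share was adjusted for span. No peak in any list was found at 82 members (33.3%), against 23.9% of all genes and 34.2% of the other genes of chromosome 19. A peak in every list was found at 29 members (11.8%), against 41.4% of all genes and 20.7% of the other genes of the chromosome. The 263 ZNF genes on other chromosomes differed from the members, with a peak in every list at 32.7% and in none at 15.2%.

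The shortfall against all genes was larger inside the genes than at their ends. An internal peak was present at 18 members (7.32%) for LNCaP BRG1, against 34.1% of all genes, and at 14 (5.69%) for LNCaP SMARCC2, against 27.7%. For MR49F the counts were 33 (13.4%) with BRG1, against 37.8%, and 34 (13.8%) with SMARCC2, against 38.1%. The other chromosome 19 genes stood between the members and all genes here, at 18.1%, 8.55%, 22.7% and 18.6% in the same order. Gene-end peaks came closer to the share of all genes. They were present at 58 members (23.6%) for LNCaP BRG1, against 37.1%, and at 24 (9.76%) for LNCaP SMARCC2, against 25.9%. In MR49F they were present at 104 members (42.3%) with BRG1, against 49.6%, and at 93 (37.8%) with SMARCC2, against 46.4%. Among the other chromosome 19 genes, 28.5% and 13.7% had a gene-end peak in LNCaP, and 39.3% and 30.2% in MR49F, for BRG1 and SMARCC2. ZNF genes on other chromosomes had gene-end peaks more often than the members in every list, at 41.4% and 25.5% in LNCaP and 65% and 61.2% in MR49F for BRG1 and SMARCC2.

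**Figure D1:**
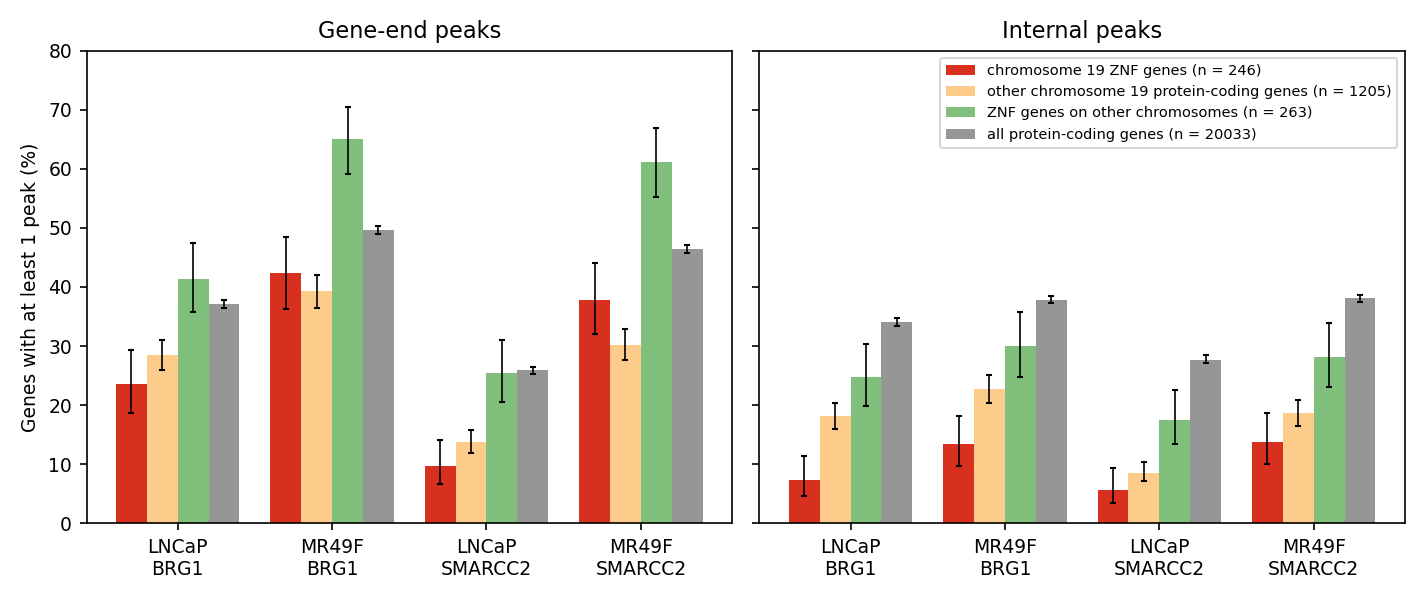
Share of genes (%) with at least 1 gene-end peak (left) or internal peak (right) in each of the 4 lists, for 4 sets of genes. Bars are shares, error bars are Wilson 95% intervals for counting error, and the internal bars of the chromosome 19 ZNF genes, between 5.69% and 13.8%, are the lowest of the 4 sets in every list.

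Counted by peak, member peaks sat mainly at gene ends. Of the distinct member peaks, gene-end peaks made up 62.8% (52.7 to 71.9) with BRG1 and 49% (35.6 to 62.5) with SMARCC2 in LNCaP, and 68.7% (61.3 to 75.2) with BRG1 and 62.4% (54.4 to 69.8) with SMARCC2 in MR49F. Over all genes these shares were 27.9%, 26.6%, 31.7% and 28.1%, and over the other genes of chromosome 19 they were 44%, 42.5%, 44.8% and 43.4%. The members' interval lay above the share of the other chromosome 19 genes in every list except LNCaP SMARCC2, where the interval held it. In numbers, gene-end, internal and flank peaks were 59, 26 and 9 for LNCaP BRG1 and 24, 18 and 7 for LNCaP SMARCC2. They were 114, 40 and 12 for MR49F BRG1 and 93, 44 and 12 for MR49F SMARCC2. Few gene-end peaks were shared with another gene: 4 of 59, 1 of 24, 9 of 114 and 6 of 93 also lay at the end of a protein-coding gene outside the set.

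The fold of gene-end and internal member peaks was compared within each list. The median fold was 3.72 at gene ends and 3.52 inside genes for LNCaP BRG1, a ratio of 1.06, and 4.11 and 3.88 for LNCaP SMARCC2, also a ratio of 1.06. It was 4.26 and 4.69 for MR49F BRG1, a ratio of 0.908, and 4.61 and 4.71 for MR49F SMARCC2, a ratio of 0.978. Among stronger peaks this order turned in 3 of the 4 lists: with a −log10 q-value of at least 5 the ratios were 0.851 and 0.911 in LNCaP and 0.94 and 1.03 in MR49F for BRG1 and SMARCC2. A ratio below 1 under every setting tried was seen only in MR49F BRG1. The gene-end medians stood at percentile 39.2, 46.5, 38.3 and 36.8 of the fold values of LNCaP BRG1, LNCaP SMARCC2, MR49F BRG1 and MR49F SMARCC2, and the internal medians at 31.9, 38.6, 48.2 and 39. Over all genes the gene-end medians stood at 42.6, 37.3, 47.4 and 41.8. The highest gene-end fold was 6.45, 6.63, 8.41 and 8.24, and the highest internal fold was 8.29, 8.58, 13.8 and 20.9.

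Nearly all gene-end peaks lay at the end of the span where the gene starts. RefSeq gives a promoter, and with it a strand and start site, for 216 of the 246 members. Among these, 52, 24, 98 and 81 members had a gene-end peak at that end in LNCaP BRG1, LNCaP SMARCC2, MR49F BRG1 and MR49F SMARCC2, and 3, 0, 4 and 4 had one at the far end. The far-end peaks were at ZNF580, ZNF653, ZNF880, ZNF628, ZNF766 and ZNF808. The far-end peak of ZNF766 in MR49F BRG1 (summit 52296496) was also a gene-end peak of its neighbour ZNF480. The members with a peak at the starting end were 24.1%, 11.1%, 45.4% and 37.5% of the 216, in the same order of lists. Over all genes with a strand these shares were 36%, 25.1%, 48.9% and 45.7%. A far-end peak was found at 2.3% to 5.27% of these genes, against 0% to 1.85% of members. The starting end was thus the more frequent place over all genes too.

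Most summits at the starting end lay beside the RefSeq start site, on the transcribed side, and few fell on it. The median position was 223 bp (BRG1) and 261 bp (SMARCC2) downstream in LNCaP, and 242 bp (BRG1) and 309 bp (SMARCC2) in MR49F. Downstream summits made up 70.4%, 79.2%, 67.6% and 81.5%, against 63.7%, 70.3%, 68.4% and 72% over all genes. A band from 200 to 500 bp downstream, chosen after the values were seen, held 38.9%, 66.7%, 48.6% and 59.3% of the members' summits, against 34.9%, 38.6%, 38.8% and 41.8% over all genes. Within 100 bp of the start site lay 4 of 54, 0 of 24, 2 of 105 and 2 of 81 summits. Summits of all genes showed the same gap, with 4.32% to 6.17% of them within 100 bp.

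**Figure D2:**
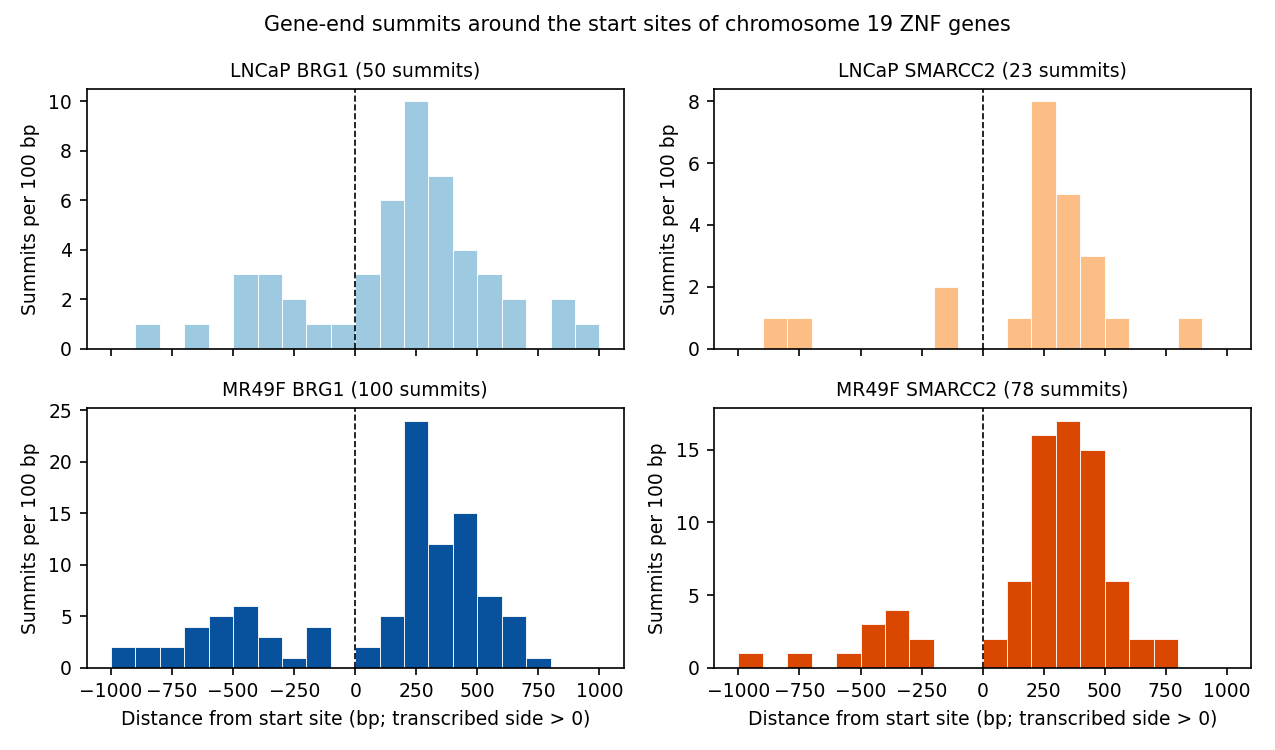
Number of gene-end summits per 100 bp by distance (bp) from the start site, 1 panel per list, with the transcribed side at positive values and the start site as a dashed line. The tallest bars lie between 200 and 500 bp downstream and few summits fall within 100 bp of the line; the 4, 1, 5 and 3 summits beyond 1000 bp (LNCaP BRG1, LNCaP SMARCC2, MR49F BRG1, MR49F SMARCC2) are not drawn.

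Some peaks classed as internal were also close to a start site, because the RefSeq start site of a member can lie inside its span. Counted per member with a strand, 7 of 27 internal peaks of LNCaP BRG1, 1 of 15 of LNCaP SMARCC2, 15 of 40 of MR49F BRG1 and 16 of 45 of MR49F SMARCC2 had their summit within 1000 bp of the listed start site. ZNF320 is an example: its internal MR49F summits lay 485 bp (BRG1) and 483 bp (SMARCC2) downstream of the start site. ZNF846 had such a summit 518 bp downstream in LNCaP BRG1, 298 bp in MR49F BRG1 and 386 bp in MR49F SMARCC2. The 2 classes of the rule therefore separate span ends from span interiors, not promoters from gene bodies.

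More members carried a gene-end peak in MR49F than in LNCaP with each antibody. With BRG1, 46 members had one in both lines, 58 (23.6%) in MR49F and not in LNCaP, against 17.9% of all genes, and 12 (4.88%) in LNCaP and not in MR49F, against 5.45%. With SMARCC2, 19 had one in both lines, 74 (30.1%) in MR49F and not in LNCaP, against 23.9%, and 5 (2.03%) in LNCaP and not in MR49F, against 3.36%. The shares in MR49F and not in LNCaP were 17.8% (BRG1) and 19.2% (SMARCC2) over the other chromosome 19 genes. Over ZNF genes on other chromosomes they were above the members', at 29.3% and 38.8%. Internal peaks were likewise at more members in MR49F, in smaller numbers. With BRG1, 18 members (7.32%) had an internal peak in MR49F and none in LNCaP, against 9.25% of all genes, and 3 (1.22%) had the reverse, against 5.48%. With SMARCC2 these were 23 members (9.35%), against 13.1%, and 3 (1.22%), against 2.78%.

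Counted by peak, MR49F held 1.93 times as many BRG1 and 3.88 times as many SMARCC2 gene-end peaks at members as LNCaP. Over all genes the ratios were 1.36 and 1.85, over the other chromosome 19 genes 1.41 and 2.44, and over ZNF genes elsewhere 1.6 and 2.54. For internal peaks the members' ratios were 1.54 and 2.44, against 1.13 and 1.7 over all genes. Members that had, with both antibodies, more peaks in MR49F numbered 63 (25.6%), against 27.1% of all genes, and 3 (1.22%) had more LNCaP peaks with both, against 3.63%. The first of these shares is near that of all genes. The summed difference over both antibodies was 0 at 112 members, 1 at 52, 2 at 50 and larger at 19, and 13 members had a negative sum.

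This excess of MR49F peaks was seen over the whole lists and turned around when lists of equal length were compared. Among peaks with a −log10 q-value of at least 5, gene-end peaks remained at 38, 15, 74 and 64 members for LNCaP BRG1, LNCaP SMARCC2, MR49F BRG1 and MR49F SMARCC2. Among the 10000 strongest peaks of each list they were at 7, 5, 4 and 0 members, so LNCaP then had more with both antibodies. The same limit left 9.01%, 7.65%, 10.5% and 6.02% of all genes with a gene-end peak, against 2.85%, 2.03%, 1.63% and 0% of members. The background of chromosome 19 peaks, taken as a multiple of the autosomal one, was lower in MR49F, with a ratio to LNCaP of 0.791 for BRG1 and 0.815 for SMARCC2, and of 0.801 and 0.81 at member peaks. Its part in the difference between the lines was not tested.

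**Figure D3:**
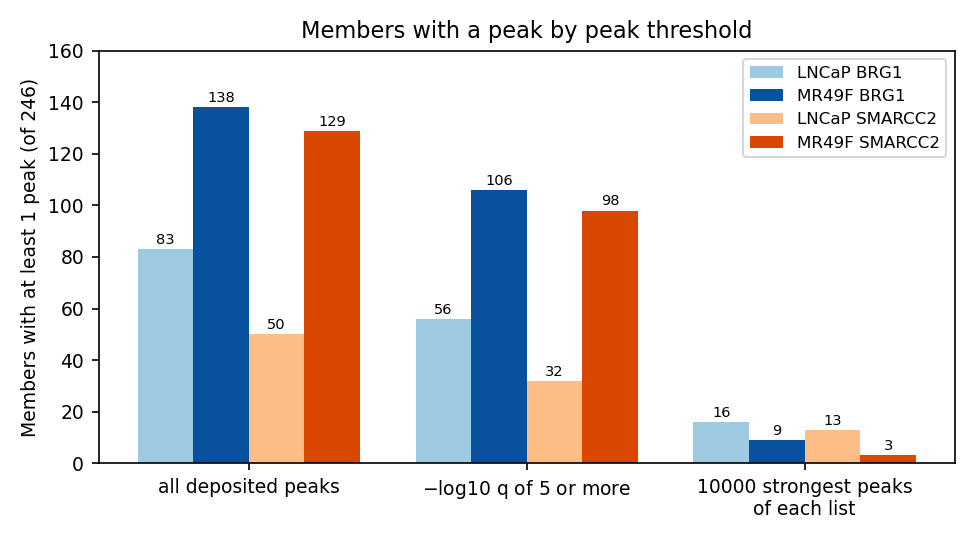
Number of the 246 members with at least 1 peak of any class, counted in each list over all deposited peaks, over peaks with a −log10 q-value of at least 5 and over the 10000 strongest peaks of each list. MR49F bars are higher in the first 2 groups (138 and 129 against 83 and 50 over all peaks) and lower in the third (9 and 3 against 16 and 13).

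Joining peaks of the 4 lists that shared at least 1 bp gave 219 member regions, of which 141 held a gene-end summit and 57 were internal. Of the gene-end regions, 14 (9.93%, 6.01 to 16) had a peak in every list, against 33.4% of the gene-end regions of all genes. The most frequent class, with 37 regions (26.2%, 19.7 to 34.1), had both antibodies in MR49F without any LNCaP peak, against 19.4% over all genes. BRG1 in both lines with SMARCC2 in MR49F accounted for 20 regions, MR49F BRG1 alone for 23, MR49F SMARCC2 alone for 13 and LNCaP BRG1 alone for 9. LNCaP SMARCC2 alone accounted for 0 of 141, for which the Wilson interval ends at 2.65%. Of the internal regions, 9 (15.8%, 8.54 to 27.4) were in every list, against 22.2% over all genes, and 14 (24.6%, 15.2 to 37.1) had both antibodies in MR49F alone, against 16.8%. Both intervals hold the share over all genes, as well as that of the members' gene-end regions. Gene-end regions in every list had a median width of 1284 bp, and those in 1 list 531 bp.

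**Figure D4:**
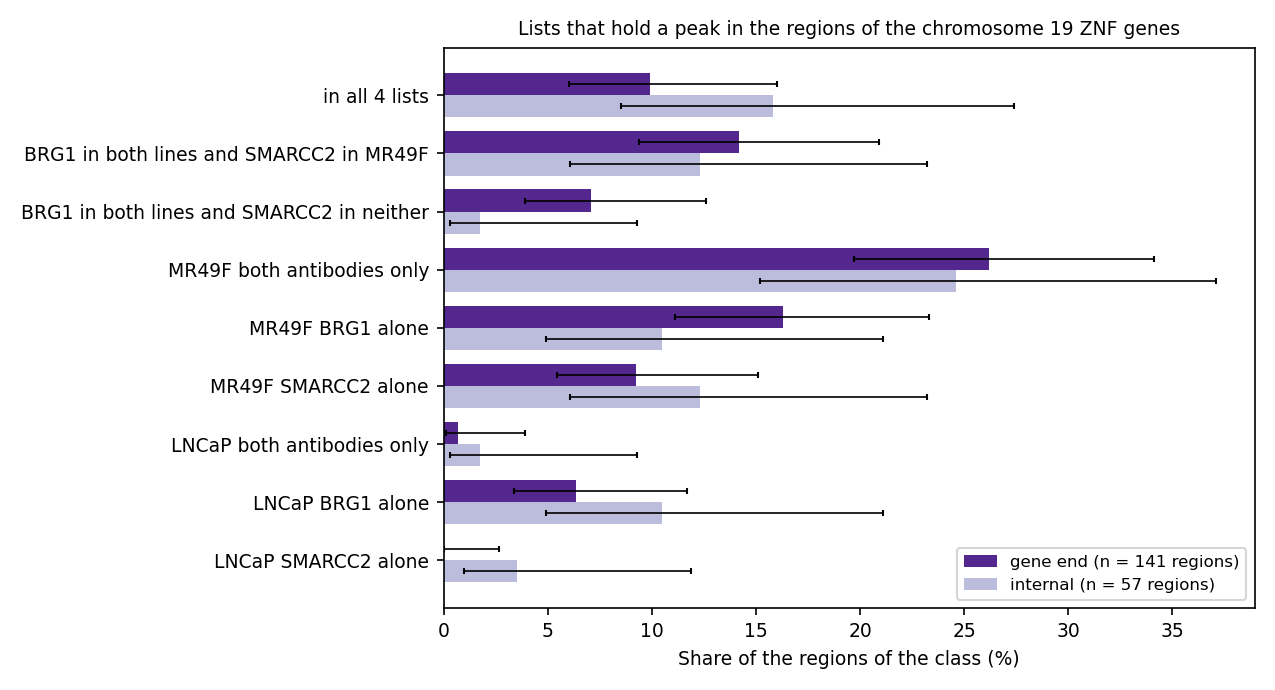
Share of the 141 gene-end and 57 internal member regions (%) by the lists that hold a peak in them, with Wilson 95% intervals. The 5 other patterns, each at most 3.55% of either kind of region, are not drawn. The class with both antibodies in MR49F and no LNCaP peak has the longest bar in both kinds of region (26.2% and 24.6%), and the intervals of gene-end and internal regions overlap in each class drawn.

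BRG1 and SMARCC2 peaks were compared at the same gene ends. A SMARCC2 peak overlapped 28.8% (18.8 to 41.4) of the 59 LNCaP BRG1 gene-end peaks and 67.5% (58.5 to 75.4) of the 114 MR49F ones, against 60.5% and 83.1% over the gene-end peaks of all genes and 40.5% and 65.7% over those of the other chromosome 19 genes. In the other direction, BRG1 overlapped 70.8% (50.8 to 85.1) of the 24 LNCaP and 80.6% (71.5 to 87.4) of the 93 MR49F SMARCC2 gene-end peaks, against 87.8% and 91.1% over all genes. The members' shares were below those of all genes in all 4 comparisons. For the BRG1 peaks their intervals held the shares of the other chromosome 19 genes. For the SMARCC2 peaks the other chromosome 19 genes stood at 92.6% in LNCaP and 90.4% in MR49F, above the members' intervals. The LNCaP SMARCC2 list is the shortest of the 4, with 25706 peaks against 36174 for LNCaP BRG1. The part of list length in these shares was not tested.

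A gene-end peak in every list was found at 14 members (5.69%), against 18.8% of all genes. They were ZNF266, ZNF700, ZNF433, ZNF709, ZNF254, ZNF507, ZNF792, ZNF780A, ZNF766, ZNF761, ZNF579, ZNF667, ZNF547 and ZNF419. At ZNF792 (chr19:34956354-34964229) the fold was 4.94 in LNCaP BRG1, 4.16 in LNCaP SMARCC2, 5.83 in MR49F BRG1 and 4.58 in MR49F SMARCC2. Its summits lay 154, 223, 333 and 256 bp downstream of the start site, just beyond the promoter printed above. ZNF766 (chr19:52269587-52296046) had a fold of 4.74, 4.26, 7.99 and 4.34 in the same order, with summits 274, 287, 155 and 401 bp downstream. ZNF780A (chr19:40069152-40090943) had 3.83, 3.62, 8.41 and 7.44, with summits 476, 470, 402 and 562 bp downstream, and its MR49F BRG1 value was the highest gene-end fold of the members in that list. The −log10 q-values of these genes ranged from 6.17 to 23.3.

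ZNF547 (chr19:57363551-57379565) was called in every list, but not at the same place. In LNCaP its summits lay 358 bp (BRG1) and 256 bp (SMARCC2) downstream of the start site, and in MR49F their positions were -945 and -981 bp, on the upstream side. The fold was 3.89 and 4.26 in LNCaP and 5.3 and 7.15 in MR49F for BRG1 and SMARCC2. The pair of positions was joined into 1 region by the LNCaP BRG1 peak, which was 1784 bp wide. The region at ZNF524 also held a peak of every list, with a fold of 5.87, 5.15, 6.27 and 5.41, but only its MR49F SMARCC2 summit fell within 1 kb of the span's end.

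A gene-end peak with both antibodies in MR49F and no gene-end peak in LNCaP was found at 34 members (13.8%), against 11.3% of all genes. The share was 9.38% over the other chromosome 19 genes and 20.2% over ZNF genes on other chromosomes. A related set is the 37 joined gene-end regions with both antibodies in MR49F and no LNCaP peak. In these the fold ranged from 2.77 to 7.75 for BRG1, with a median of 4.47. For SMARCC2 it ranged from 2.96 to 8.24, with a median of 4.61. ZNF443 (chr19:12429706-12441021), chosen after its values were seen, had the highest of both, 7.75 and 8.24. ZNF324 had 1 gene-end peak with each antibody in MR49F, at a fold of 4.47 and 4.17, and no peak in LNCaP. ZNF480 had 2 gene-end BRG1 peaks, at 6.02 and 3.87, and 1 of SMARCC2 at 5.89, also with no peak in LNCaP. The reverse, both antibodies at a gene end in LNCaP and neither in MR49F, was found at 1 member (0.407%), ZNF350, against 1.09% of all genes.

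ZNF552, ZNF808 and ZNF823 showed the largest summed MR49F excess. ZNF552 (chr19:57807082-57814913) had 1 peak in each LNCaP list and 4 in each MR49F list. Both LNCaP peaks lay in the flank, where the MR49F lists also had a peak, and the MR49F lists added an internal peak with a fold of 6.2 (BRG1) and 5.57 (SMARCC2) and a gene-end peak with 3.53 and 3.73. The remaining MR49F peaks were flank peaks. The SMARCC2 one (summit 57803726) lay in the same joined region as the LNCaP peaks. The BRG1 one (summit 57819862) lay in a region with a LNCaP SMARCC2 peak whose summit was outside the window. ZNF823 (chr19:11721265-11738946) had 1 LNCaP BRG1 peak, 0 of LNCaP SMARCC2, 2 of MR49F BRG1 and 3 of MR49F SMARCC2. Its gene-end summits did not all lie at the same place. The LNCaP BRG1 summit was at -419 bp from the start site, on the upstream side, with a fold of 2.75. In MR49F, summits lay 501 bp (BRG1, fold 7.74) and 479 bp (SMARCC2, fold 6.27) downstream. Another MR49F SMARCC2 summit, at -482 bp, had a fold of 2.88. ZNF808 had 1, 0, 3 and 2 peaks, of which those at the start were in MR49F, with a fold of 3.9 for BRG1 and 4.12 for SMARCC2. The next place was tied, with 16 members at a summed difference of at least 3 and more MR49F peaks for each antibody, and ZNF320, ZNF324 and ZNF480 were taken by symbol.

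The 3 members with more LNCaP peaks with both antibodies each had 1 peak per LNCaP list and none in MR49F. ZNF350, also known as ZBRK1, a KRAB repressor that binds BRCA1, had its summits 812 and 802 bp downstream of the start site, with a fold of 3.37 for BRG1 and 3.8 for SMARCC2. ZNF383 had a BRG1 summit 3 bp from the start site, with a fold of 3.92, while its SMARCC2 peak lay in the flank beyond the far end, with 3.44. ZNF681 had both summits in the flank, at 23763203 and 23763322, with a fold of 5.83 and 5.31. These are the stronger peaks of the 3 genes, at −log10 q-values of 13.5 and 11.3.

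Most members with an internal peak had 1, and a few had several. ZNF536, a repressor of neuronal differentiation genes and the longest member at 488 kb, had 6, 4, 5 and 7 peaks in LNCaP BRG1, LNCaP SMARCC2, MR49F BRG1 and MR49F SMARCC2. All 22 were internal. A site near the middle of the gene had summits at 30442770, 30442748, 30442813 and 30442870 in the 4 lists, with a fold of 5.07, 5.31, 3.15 and 5.01. A second had summits at 30630355, 30630519, 30630520 and 30630797, with a fold of 2.24, 2.77, 3.87 and 4.71. The highest −log10 q-value of a ZNF536 peak was 7.6, 8.3, 4.05 and 8.04 in the 4 lists. The medians over internal peaks of all genes were 6.77, 6.97, 9.25 and 10.9, so the LNCaP values were above and the MR49F values below.

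ZNF507 had 18 peaks, 4 in each of the other lists and 6 in MR49F SMARCC2, with 1 at the start site in every list. Its leading internal site differed between the lines. At summits from 32350239 to 32350306 the fold was 8.29 and 8.58 in LNCaP BRG1 and SMARCC2, the highest of any member peak in those lists, and 4.67 and 5.06 in MR49F. At summits from 32363359 to 32363473 it was 3.17 and 3.13 in LNCaP, and 8.92 and 10.8 in MR49F. Within each LNCaP list the first site was thus the stronger, and within each MR49F list the second, with both antibodies.

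ZNF714 held the strongest member peak of the MR49F SMARCC2 list. Its internal site had summits between 21110419 and 21110455 in all 4 lists, with a fold of 7.27 in LNCaP BRG1, 6.22 in LNCaP SMARCC2, 13.8 in MR49F BRG1 and 20.9 in MR49F SMARCC2. The −log10 q-values were 17.2, 13, 40.9 and 72.1. ZNF444, a zinc finger gene first described in endothelial cells, had an internal site with a fold of 6.09, 4.91, 11 and 7.99 and −log10 q-values of 27.6, 19, 44.8 and 20. The summits of this site, from 56142343 to 56142502, lay shortly downstream of the listed start site at 56141287, inside the span. ZNF787 had 14 peaks, with an internal site in every list at a fold of 5.64, 3.91, 3.68 and 7.83. ZNF600 had an internal site in every list at 4.86, 4.43, 4.16 and 5.3. ZNF581 had 11 peaks, 4 of them internal, 6 in the flanks and 1 at the left end of its span, in a stretch where several genes lie close together. Its RefSeq start site lies inside the span, and the summits nearest to it were internal ones at -719 bp in LNCaP BRG1 and -644 bp in MR49F SMARCC2.

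Along the chromosome the members form 20 groups when neighbours under 500 kb apart are joined, and 10 groups of at least 5 members hold 232 of them. Members without any peak were unevenly spread over these groups. In the group from ZNF101 to ZNF254 (chr19:19668153-24129968), 24 of 37 members (64.9%) had none, and in that from ZNF575 to ZNF180 (chr19:43530835-44500522) 15 of 23 (65.2%) had none. In the group from ZNF175 to ZNF331 (chr19:51571283-53580269) this held for 7 of 39 (17.9%), from ZNF264 to ZNF446 (chr19:57191500-58489533) for 11 of 43 (25.6%), and from ZNF653 to ZNF791 (chr19:11483429-12633834) for 5 of 25 (20%). The median span was 34.6 kb in the first and 18.7 kb in the second of these groups, on either side of the 23.2 kb of all members. Members without any peak had a median span of 24 kb, and those with one 23 kb.

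Gene-end peaks also varied between the groups. In the group from ZNF175 to ZNF331 they were at 16, 3, 19 and 22 of 39 members for LNCaP BRG1, LNCaP SMARCC2, MR49F BRG1 and MR49F SMARCC2. From ZNF264 to ZNF446 they were at 10, 6, 23 and 18 of 43 members. From ZNF565 to ZNF573 (chr19:36182060-37779586) they were at 3, 0, 9 and 7 of 26, and from ZNF575 to ZNF180 at 0, 0, 4 and 3 of 23. In the group of 5 from ZNF554 to ZNF77 they were at 1, 0, 4 and 4. Only at ZNF302 to ZNF792 (1 of 5 in each list), and for SMARCC2 at ZNF414 to ZNF846 (3 of 13 in each line), did MR49F not have more than LNCaP among these 10 groups. Relative background at member peaks of the group from ZNF101 to ZNF254 was 0.605 and 0.629 in MR49F for BRG1 and SMARCC2, against 0.844 and 0.933 in LNCaP. In the group from ZNF565 to ZNF573 it went the other way, with MR49F to LNCaP ratios of 1.27 and 1.1, and gene-end counts were higher in MR49F there too. Its part in these counts was not tested. Members of a group can be close copies, and how reads that fit several copies were treated is not given in the sources used here.

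**Figure D5:**
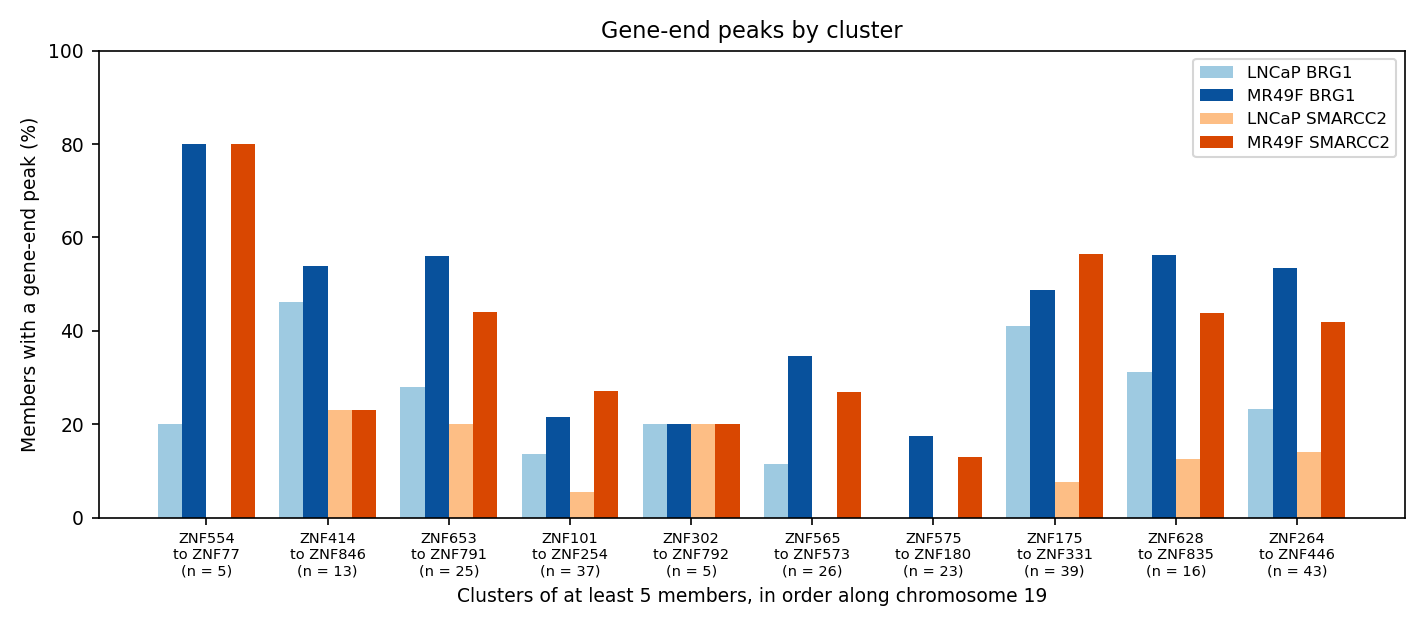
Share of members (%) with a gene-end peak in each of the 4 lists, for the 10 groups of at least 5 neighbouring members in order along chromosome 19, with the number of members under each name. Bars are low in the group from ZNF575 to ZNF180 (0, 0, 4 and 3 of 23 members) and higher in that from ZNF175 to ZNF331 (16, 3, 19 and 22 of 39).

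Of 8 members chosen for a described role, ZNF536 had the most peaks of all members, and ZNF331, ZNF350 and the 5 others had between 0 and 5. ZNF91, a repressor of SVA retrotransposons, had 0, 1, 2 and 2 peaks in LNCaP BRG1, LNCaP SMARCC2, MR49F BRG1 and MR49F SMARCC2. Its start-site fold was 2.44 in LNCaP SMARCC2, 4.15 in MR49F BRG1 and 5.61 in MR49F SMARCC2. ZNF93, which binds LINE-1 elements, had no peak. ZNF274, known for binding the coding ends of other ZNF genes and recruiting a histone methyltransferase there, had 1 MR49F BRG1 peak with a fold of 2.97, at -960 bp from its start site, on the upstream side. ZNF224, a KRAB repressor, had a BRG1 peak in its flank and a SMARCC2 peak 614 bp downstream of its start site in MR49F. That BRG1 summit also lay 347 bp downstream of the listed start site of its neighbour ZNF225. ZNF382, another KRAB gene, had 1 MR49F BRG1 peak with a fold of 2.92. None of the peaks of ZNF224, ZNF274 and ZNF382 was in LNCaP.

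The longest members without any peak were ZNF577 (83.5 kb), ZNF568 (81.6 kb), ZNF676 (81.2 kb), ZNF331 (77 kb) and ZNF208 (71.1 kb). Of these, ZNF331 is an imprinted gene. Where no peak is listed the signal stayed under the caller's threshold, which does not show that the complex was missing.

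Genes that KRAB zinc finger proteins work with were examined from a list of 18 corepressor and silencing genes. With both antibodies, 11 of them had more peaks in MR49F and 0 had more LNCaP peaks, against 27.1% and 3.63% of all genes. The list is small and was drawn up with earlier results of these data known. TRIM28, the corepressor that KRAB domains bind, had 1, 1, 2 and 3 peaks in LNCaP BRG1, LNCaP SMARCC2, MR49F BRG1 and MR49F SMARCC2. CBX5, which encodes heterochromatin protein HP1-alpha, had 1, 0, 5 and 5. DNMT1, the maintenance DNA methyltransferase gene, had 0, 0, 3 and 2, and its partner UHRF1 had 0, 0, 3 and 3. ATF7IP, a cofactor of the methyltransferase SETDB1, had 4, 1, 1 and 3, and SETDB1 itself had 0 in each list. A gene-end peak in every list was found at 4 of the 18, near the 18.8% of all genes.

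The lists held peaks at genes of luminal prostate cells. FOXA1 had 2, 1, 3 and 7 peaks in the same order, and HOXB13 had 2, 3, 2 and 3. KLK3 and TMPRSS2 also had a peak in every list. Of the markers of other cell types, DCN and PTPRC had 0 peaks in every list, COL1A1 had 1, 1, 2 and 0, CD3E 1 in each, and ALB 0, 0, 2 and 2.

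The 9 motifs were counted in the promoters of members and of other genes. In the 250 bases before the start site, CCAAT was present in 51.4% of the 216 member promoters and in 34.5% of 15841 promoters of all genes. CCGGAAGT was present in 14.4% and 5.08%. For these motifs the other chromosome 19 genes, at 36.5% and 3.92%, were near all genes. GGGCGG was present in 64.8% and 55.8%, and TGTTTAC, a forkhead motif, in 0.926% and 2.32%, and here the other chromosome 19 genes, at 63.5% and 0.722%, were near the members. TGACGTCA was about as frequent in both, at 2.31% and 2.29%, as was TGANTCA, a motif of AP-1 factors, at 6.02% and 5%. The longer NRF1 motif was present in 2.31% and 1.49%, the YY1 motif in 0.926% and 0.284%, and the ZNF143 motif in 0.926% and 0.366%. Each was searched on both strands, and matches may overlap.

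Promoters of members with a gene-end peak at the starting end of the span were richer in G and C. Their median GC content was 61.6% over the 117 members with such a peak in any list and 56.8% over the 99 without. The median number of CpG dinucleotides was 18 and 14. GGGCGG was found in 74.4% of the first and 53.5% of the second. CCAAT (49.6% and 53.5%) and CCGGAAGT (13.7% and 15.2%), both more frequent in members than in the rest of the chromosome, differed little between the members with and without such a peak. A peak at the starting end need not lie at the listed start site, and at ZNF254 the LNCaP BRG1 summit was at -53360 bp. Some of the 99 members without one, such as ZNF320, had an internal summit within 1000 bp of their listed start site. These are descriptions of sequence and were not tested.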

How the data were processed

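ChIP-seq peaks were deposited for 4 of the 6 samples, 1 library for each line and antibody. The build was hg38 and the tools were MACS2 2.1.0, BWA 0.7.10 and SAMtools, per the submitters' processing notes. Read filters and the choice of input as control were not given in those sources. The authors deposited for each peak a fold enrichment over local background, a −log10 p-value and a −log10 q-value, as their caller wrote them, and a display score that was not used. The lowest −log10 q-value of the deposited lists was between 2.001 and 2.014, which fits a q-value limit of 0.01. Peaks were called per library, with no pooling.

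The members and all lists were chosen with earlier results of these data known. Summits were placed against RefSeq gene spans (GRCh38.p14, 20033 protein-coding genes) with a window of 5 kb, and windows of neighbouring members can share a peak. Promoters gave the strand for 216 of 246 members. Protein sequences were not used here. Local background tags were solved from fold and p-value, a step tested on simulated data. Members were named by rules: the most peaks, the largest differences between lines, the strongest gene-end and internal regions in all lists, the longest without a peak, and 8 with a known role. Python 3.11.15, NumPy 2.4.6, pandas 2.3.3, SciPy 1.17.1 and matplotlib 3.10.9 were used. Alternatives covered the window, the gene-end distance, the peak threshold, non-overlapping windows and summit matching. A further marker gene is not reported here.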

Additional observations from a re-analysis of the deposited data

Results flagged for a closer look

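At 10 members the difference between MR49F and LNCaP in the number of peaks had opposite signs with the 2 antibodies. The difference between antibodies was not tested, since each count comes from 1 library. At ZNF536 the difference was -1 with BRG1 (6 peaks in LNCaP, 5 in MR49F) and 3 with SMARCC2 (4 and 7). At ZNF575 it was -1 with BRG1 (2 and 1) and 2 with SMARCC2 (0 and 2). ZNF414, ZNF493, ZNF880, ZNF528, ZNF444 and ZNF417 each had -1 for BRG1 and 1 for SMARCC2. ZNF121 and ZNF20 each had 1 for BRG1 and -1 for SMARCC2. Over all genes, 1338 had fewer BRG1 and more SMARCC2 peaks in MR49F and 208 had the reverse, against 8 and 2 of the members.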

How the results depend on the processing

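Of 97 values computed under 7 other settings for 16 results, 76 stayed within the limits set (1.5 times for a count, the counting interval for a share, and for a ratio of folds the span that the 95% intervals of both medians over peaks allow), and 21 moved. Those limits are wide for the ratio of gene-end to internal fold, which crossed 1 in 7 of the 76: to 0.851 and 0.841 for LNCaP BRG1 (−log10 q-value of at least 5, and 10000 strongest peaks), to 0.911, 0.876 and, with gene ends within 2 kb, 0.953 for LNCaP SMARCC2, and to 1.03 and, with non-overlapping windows, 1 for MR49F SMARCC2. With the 10000 strongest peaks of each list, members with a peak numbered 16 and 13 in LNCaP and 9 and 3 in MR49F for BRG1 and SMARCC2, so the order of the lines turned. The gene-end share was then 43.8% for LNCaP BRG1, 44.4% for MR49F BRG1 and 0% for MR49F SMARCC2, members with more MR49F peaks with both antibodies numbered 1, and 0% of gene-end regions were in every list. Over the 125 members whose window overlaps no other, members with a peak numbered 42, 25, 66 and 62 (LNCaP BRG1, LNCaP SMARCC2, MR49F BRG1, MR49F SMARCC2). Of these 125, 30 had more MR49F and 1 more LNCaP peaks with both antibodies. Such counts were compared with those of 246 members as numbers and not as shares, so the smaller set alone lowers them. Their place among the values that moved does not show a change in share. The MR49F SMARCC2 gene-end share was 54% in this setting. For LNCaP SMARCC2, members with a peak numbered 33 with summits inside the span and 32 with a −log10 q-value of at least 5. With a window of 10 kb, 5 members had more LNCaP peaks with both antibodies. When summits within 200 bp defined a region, 5.62% of gene-end and 6.76% of internal regions were in every list. Beyond the smaller set of 125 members, the cause of these shifts was not tested. The ratio of folds for MR49F SMARCC2 could not be computed with the 10000 strongest peaks. No paired analysis was possible because each line and antibody has 1 library and no result comes from a replicated test. Read depth is unknown, so what each list could detect cannot be stated.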
